A study of Mus musculus with 2 samples.

Results

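The core circadian clock was examined through 10 genes in total RNA sequencing of adult mouse heart. They were taken by symbol: the activators Clock, Npas2 and Arntl (which encodes BMAL1), the repressors Per1, Per2, Per3, Cry1 and Cry2, and the nuclear receptors Nr1d1 and Nr1d2 (which encode REV-ERB alpha and beta). All 10 were found among the 55536 mouse genes of the deposited tables. They were chosen by name, but with their TPM levels and ratios in these libraries already known, so these values are given as a description, without a test. Hearts came from 2 male B6CASTF1/J mice aged 8 to 10 months, first-generation offspring of the C57BL/6J and CAST strains. Replicate 1 is animal 2 of the labels and replicate 2 is animal 4, with 1 library each, although both carry the same donor entry. The labels give no treatment, no second group and no time of day of collection, so the comparisons made were between genes inside a library and between the 2 animals. Both libraries were made from 300 ng of RNA after ribosomal RNA was reduced, with ERCC spike-in RNA added.

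The clock is a loop of transcription that runs in nearly every mouse cell, heart muscle included. BMAL1 pairs with CLOCK, or with its relative NPAS2, binds E-box sequences and switches on the Per, Cry and Nr1d genes. PER and CRY proteins then hold back that activator pair, while the REV-ERB receptors hold back Arntl and Npas2 through ROR elements. In mouse tissues the Nr1d and Per transcripts therefore peak on the other side of the day from Arntl and Npas2, and ratios between the 2 sides are commonly used to describe the state of the loop.

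The letters of these control elements can be read in the promoters. RefSeq promoter windows (GRCm38.p6, whose chromosome coordinates are those of mm10) were at hand for 9 of the 10 members, Per2 being the exception, with 13 windows in all. Each window holds 250 bases before an annotated start and 50 after it. The 250 bases before the start are shown for the 2 members that hold more than 1 match there. Lower case is plain sequence and capitals mark the matched motif, all written 5′ to 3′ on the gene's own strand.
Per3 (chr4:151044666-151044915, minus strand): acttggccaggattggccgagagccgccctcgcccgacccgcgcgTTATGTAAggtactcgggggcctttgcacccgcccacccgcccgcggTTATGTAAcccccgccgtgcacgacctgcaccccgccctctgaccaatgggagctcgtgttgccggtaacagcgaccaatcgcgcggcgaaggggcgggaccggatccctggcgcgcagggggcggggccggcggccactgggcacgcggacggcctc
Cry1 (chr10:85185055-85185304, minus strand): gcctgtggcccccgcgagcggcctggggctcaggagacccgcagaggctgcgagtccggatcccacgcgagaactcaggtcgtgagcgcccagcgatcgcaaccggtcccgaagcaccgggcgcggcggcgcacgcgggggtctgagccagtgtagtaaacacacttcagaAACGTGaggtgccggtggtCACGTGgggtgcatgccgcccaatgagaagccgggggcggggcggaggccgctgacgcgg

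The Per3 window carried the D-box letters TTATGTAA at 2 places, which begin at positions -205 and -158 from the start. D-boxes are bound by the activators DBP, TEF and HLF and by the repressor NFIL3. TTATGTAA or TTACGTAA on either strand occurred in the 250 bases before the start in 1.1% of the 27025 genes with a window, and Per3 was the only one of the 9 members to hold it. The Cry1 window, whose last 10 bases are annotated exon in GENCODE M21, carried the E-box CACGTG at position -60 and the related E-prime box CACGTT, read on the other strand as AACGTG, at position -79. These motifs do not overlap. CACGTG was found in 2 of 9 members (Cry1 and Per1) against 6.86% of all genes, and CACGTT in 3 of 9 (Cry1, Cry2 and Nr1d1) against 4.5%.

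The matches in the other members are shown with 30 bases each, to set the Per1, Cry2, Nr1d1 and Arntl elements side by side. The Per1 and Cry2 elements both begin at position -166 and the Nr1d1 element at position -28. The Per1 start used by RefSeq lies inside the longer gene of GENCODE M21.
Per1 E-box (chr11:69098771-69098800, plus strand): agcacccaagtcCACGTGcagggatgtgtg
Cry2 E-prime box (chr2:92434218-92434247, minus strand): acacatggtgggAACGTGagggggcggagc
Nr1d1 E-prime box (chr11:98775388-98775417, minus strand): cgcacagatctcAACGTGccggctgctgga
Arntl ROR element core (chr7:113207530-113207559, plus strand): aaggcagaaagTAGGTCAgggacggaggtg

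The ROR element core was searched only as TAGGTCA or TGGGTCA, and other spellings were not searched. None of the 9 members held it in the 250 bases before the start, against 6.15% of all genes. Arntl held it 31 bases into the transcript from 1 of its 2 RefSeq starts, in a window widened to the 50 bases after the start, where 7.35% of all genes hold it. That stretch lies wholly in annotated exon sequence of GENCODE M21. The cyclic AMP response element TGACGTCA was found in none of the 9 members in either window, against 1.77% of genes before the start. A match describes letters of the reference assembly only. The CAST alleles of these hybrid mice were not examined, and binding was not measured here.

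Replicate 1 held 42.05 M expected counts on mouse genes and replicate 2 held 39.98 M. All 6 heart muscle markers, among them Myh6, Myl2 and Ryr2, were read above 1 TPM (transcript abundance corrected for length and scaled to a fixed sum per library) in both. They summed to 25472 TPM in replicate 1 and 27840 TPM in replicate 2. All 6 were higher in replicate 2, with a median log2 count ratio of -0.083. Marker lists of several other cell types differed between the animals. Lung epithelium markers summed to 35.3 TPM in replicate 1, nearly all of it from Scgb1a1 and Bpifa1, while all 5 were at 0 in replicate 2 and Sftpc was at 0 in both. The 5 erythroid markers summed to 11660 and 6319 TPM, and the 5 neutrophil markers to 9.61 and 1.43 TPM, with Ly6g at 0 in both. All 5 adipocyte markers were higher in replicate 1, with sums of 10.7 and 2.8 TPM, while macrophage markers summed to 122.8 and 63.8 TPM, of which Lyz2 gave 88.2 and 29.2. Adgre1 was also called at 2-fold in replicate 1, but the macrophage medians were 10.1 and 10.1 TPM and C1qa and C1qb were higher in replicate 2. Endothelial markers summed to 349.5 and 339.1 TPM, fibroblast markers to 180.5 and 192.5, and mural markers to 171.3 and 158.1. The part of these cells in the clock gene values was not tested. In whole tissue, fewer cells of a type and less RNA per cell cannot be told apart.

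The REV-ERB genes were the most abundant of the 10 and Npas2 the least. Nr1d1 (ENSMUSG00000020889.11, chromosome 11, 98767932 to 98775333) was at 36.5 TPM in replicate 1 and 42.8 TPM in replicate 2. Nr1d2 (ENSMUSG00000021775.11, chromosome 14, 18204054 to 18239127) was at 24.0 and 31.6 TPM. By mean level they ranked 1340 and 1960 among 22028 protein-coding genes.

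The activators spanned the range. Clock (ENSMUSG00000029238.11, chromosome 5, 76209868 to 76304792), a bHLH-PAS protein with acetyltransferase activity, was at 10.1 and 9.8 TPM in replicates 1 and 2. Arntl (ENSMUSG00000055116.8, chromosome 7, 113207465 to 113314126), its obligate partner, was at 3.11 and 2.0 TPM. Npas2 (ENSMUSG00000026077.15, chromosome 1, 39193731 to 39363236), the paralog that can take the place of CLOCK, was at 0.67 and 0.73 TPM. Clock thus stood 15.0-fold above Npas2 in replicate 1 and 13.4-fold in replicate 2, and Npas2 was the only member under 1 TPM. Npas2 rested on 85 and 86 expected counts.

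Among the repressors Per1 led. Per1 (ENSMUSG00000020893.17, chromosome 11, 69095217 to 69109960), which also answers to acute signals such as glucocorticoids and cyclic AMP, was at 12.8 TPM in replicate 1 and 16.6 TPM in replicate 2. Per2 (ENSMUSG00000055866.9, chromosome 1, 91415982 to 91459324), a scaffold of the repressor complex, was at 2.88 and 2.56 TPM. Per3 (ENSMUSG00000028957.12, chromosome 4, 151003652 to 151044665), the member of the family least needed for rhythm in mice, was at 2.64 and 4.36 TPM. Per1 stood 4.43-fold and 6.48-fold above Per2, and 4.83-fold and 3.81-fold above Per3, in replicates 1 and 2. In a second quantification these were 3.24-fold and 5.05-fold over Per2, and 3.36-fold and 3.07-fold over Per3. The Per1 level includes a short fragment described below. Cry2 (ENSMUSG00000068742.11, chromosome 2, 92403646 to 92434043) was at 7.88 and 9.0 TPM and Cry1 (ENSMUSG00000020038.10, chromosome 10, 85131700 to 85185064), the stronger repressor of the pair in mouse cells, at 2.94 and 3.27 TPM. The ratio of Cry2 to Cry1 was 2.68 and 2.75 in replicates 1 and 2 (log2 1.44 ± 0.03, SD, n = 2), and 2.5 and 2.02 in the second quantification described below.

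**Figure D1:**
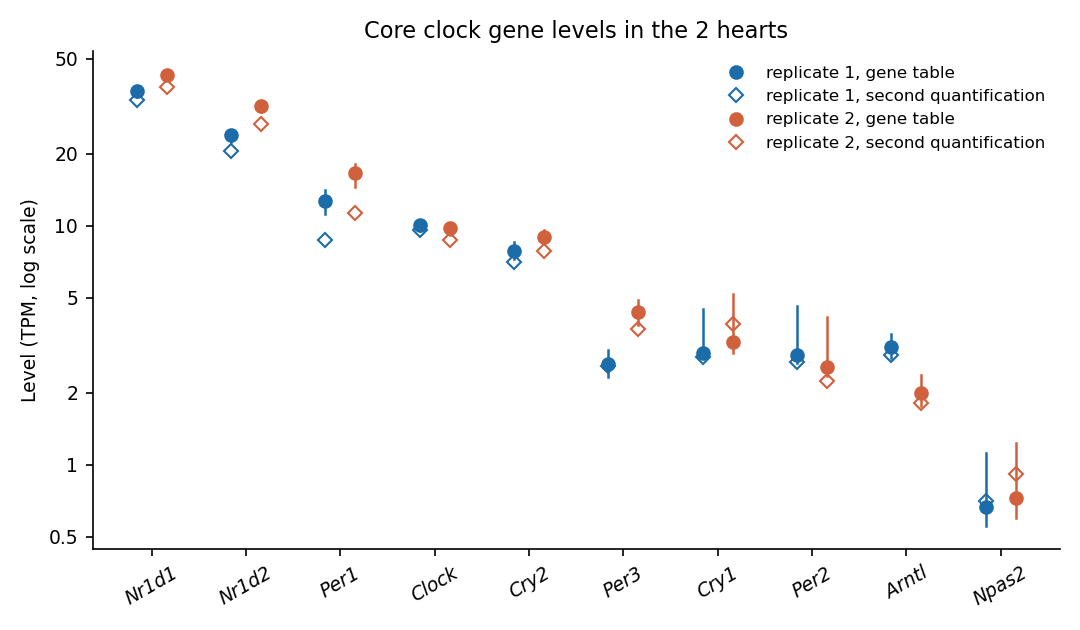
Level of each core clock gene in TPM on a log axis, in replicate 1 and replicate 2, with filled circles for the gene table, bars for the interval deposited with it and open diamonds for the second quantification. Nr1d1 and Nr1d2 lie above the other 8 genes in both libraries, and Per3, Cry1, Per2 and Arntl lie close together between 2.0 and 4.36 TPM in the gene table.

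Ordered by mean TPM, the genes ran Nr1d1 (39.7 ± 4.47), Nr1d2 (27.8 ± 5.37), Per1 (14.7 ± 2.72), Clock (9.94 ± 0.198), Cry2 (8.44 ± 0.792), Per3 (3.5 ± 1.22), Cry1 (3.11 ± 0.233), Per2 (2.72 ± 0.226), Arntl (2.56 ± 0.785) and Npas2 (0.7 ± 0.0424), with SD over 2 libraries. The 2 libraries' values of Per3 overlapped those of Cry1, and those of Per2 overlapped those of Arntl. All other neighbours in the order had values that did not overlap. The intervals deposited with the TPM, whose level is not stated, were wide for some members, from 2.67 to 4.62 TPM in replicate 1 and 2.35 to 4.16 TPM in replicate 2 for Per2, and from 2.8 to 4.49 and 2.93 to 5.2 TPM for Cry1. A second quantification, deposited for each library as a separate transcript table and summed here per gene, gave the same order but for Cry1 above Per3. Its Cry1 level in replicate 2 included 1.46 TPM from Cry1-202, a fragment of 406 nucleotides, on 9.79 estimated counts. Cry1-201 alone was at 2.73 and 2.42 TPM there. The ratio of Cry2 to Cry1 in that quantification includes the fragment too. In the second quantification the values of Per1 and Clock overlapped, as did those of each neighbour from Cry1 down to Arntl.

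Per1 was the member whose level depended most on the quantification. Its mean of 14.7 TPM was 1.47 times the 10.0 TPM of the second quantification, while for the other 9 members this ratio ran between 0.861 and 1.18. A short annotated fragment, Per1-204 of 496 nucleotides, held 28.4% and 37.3% of the gene's TPM in replicates 1 and 2 but 3.45% and 5.07% of its expected counts. The second quantification gave that fragment 0% and 17.0% of the gene's TPM. The nearly full-length Per1 transcripts Per1-201 (4671 nucleotides) and Per1-206 (4636 nucleotides) together held 86.9% and 85.9% of the counts. Reads were divided between them differently by library and by method: Per1-201 held 61.7% and 29.8% of TPM in the deposited shares and 0.00149% and 14.8% in the second quantification.

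The leading transcript was annotated as protein-coding for all 10 members and was the same in both quantifications for 9, Per1 being the exception. For 8 members its share passed 50% in each library. Nr1d1-201 held 97.4 ± 0.233%, Cry1-201 93.8 ± 8.77%, Cry2-201 90.1 ± 6.97%, Npas2-201 86.4 ± 0.651%, Nr1d2-201 79.7 ± 0.431% and Arntl-201 79.6 ± 13.3% of the gene's TPM (SD, n = 2). Per2 was carried by Per2-201 alone. Clock was shared by 3 long protein-coding transcripts, with Clock-201 at 51.7 ± 2.70%, Clock-205 at 30.6% and 29.2%, and Clock-204 at 15.2% and 11.4%.

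In Arntl the split differed between the animals, and in Per3 a larger share lay outside the coding forms. In replicate 1 Arntl-201 held 89.0% of the gene's TPM and the protein-coding forms Arntl-204 and Arntl-206 held 0%. In replicate 2 Arntl-201 held 70.2% and those 2 forms together 29.4%, on 20.8 and 28.6 expected counts. The second quantification placed 30.9% on Arntl-206 in replicate 2 and 0% in replicate 1. For Per3, transcripts annotated as retaining introns held 28.8% of TPM in replicate 1 and 27.1% in replicate 2, and 28.2% and 18.6% in the second quantification. Retained introns held 18.9% and 20.6% of Nr1d2, and at most 12.4% of any other member in either library by the deposited shares. Those of Nr1d2 held 6.55% and 7.92% of its expected counts, and 12.1% and 13.4% of its TPM in the second quantification. For Cry1, retained introns held 3.02% in replicate 1 and 37.7% in replicate 2 in the second quantification. All of this lay on the 406-nucleotide fragment Cry1-202, with 0.603 and 9.79 estimated counts. The deposited 12.4% was also Cry1-202, in replicate 2, on 4.07 expected counts or 1.46% of the gene's counts.

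**Figure D2:**
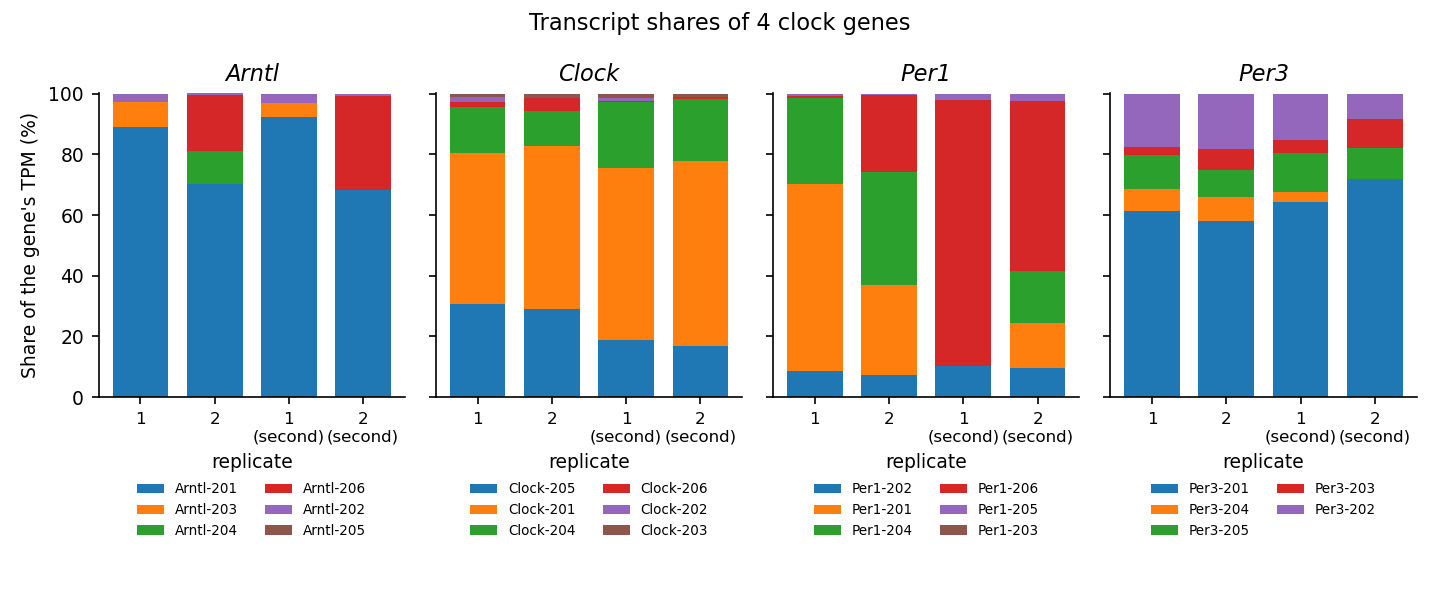
Share of each annotated transcript in the TPM of Arntl, Clock, Per1 and Per3, in percent, for replicates 1 and 2 in the deposited shares and for the same libraries in the second quantification. Clock-201 leads in all 4 bars of Clock, while Per1-201 and Per1-206 exchange places and Arntl-206 appears in replicate 2 only.

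Some members overlap neighbouring genes, and how reads were divided between them was not tested. Per3 lies inside Camta1 on the same strand, with 0 exon bases in common, and Camta1 was at 64.3 and 77.7 TPM in replicates 1 and 2. Nr1d1 shares 263 exon bases with Thra on the opposite strand, and Thra was at 34.3 and 38.3 TPM. The library kit keeps strand, but whether the counting used it is not given in the sources used here. The antisense gene of Arntl, Gm45355, held 0 counts in both libraries, and that of Cry2, D930015M05Rik, held 0 in replicate 1 and 1 in replicate 2.

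Between the 2 animals, Arntl was higher in replicate 1 and Per3 in replicate 2, and no other member differed by 1.5-fold. Expected counts were scaled with the TMM method, and ratios are replicate 1 over replicate 2 with an exact Clopper-Pearson interval that leaves 0.1% of the probability outside and covers counting error only. Arntl had 304 counts in replicate 1 and 180 in replicate 2, a ratio of 1.63 (interval 1.19 to 2.24). Per3 had 449 and 685 counts, a ratio of 0.632 (0.516 to 0.772). Calls at a given fold asked for at least 200 counts over both libraries, a ratio past that fold and an interval without 1. By this rule 2 of 9 members tested were called at 1.5-fold, against 3.53% of the 10960 genes tested, or 2.52% on the side of replicate 1 and 1.01% on that of replicate 2. At 2-fold no member was called, against 1.08% of genes. The second quantification called Arntl and Per3 at 1.5-fold too, against 3.75% of the 11094 genes tested in it, and none at 2-fold, against 1.06%. Nothing is read from these counts about the members, which were chosen with the ratios known. With 1 library per animal there is no replicate check on these calls, and no p-value is given.

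The other members differed less. Nr1d2 had 3264 counts in replicate 1 and 4076 in replicate 2, a ratio of 0.772 (0.714 to 0.834). For Nr1d1 the counts were 3270 and 3610, with a ratio of 0.873 (0.806 to 0.945). Cry2 followed with 973 and 1118 counts, and a ratio of 0.839 (0.725 to 0.970). All 3 lay on the side of Per3.

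Per1, with 1452 counts in replicate 1 and 1587 in replicate 2, had a ratio of 0.882 (0.782 to 0.994). By TPM the same ratio was 0.769, and by the TPM of Per1 without the fragment Per1-204 it was 0.877. Per2 had 574 and 481 counts, a ratio of 1.15 (0.937 to 1.41), and its interval held 1. Those of Clock (1.05), Cry1 (1.03) and Npas2 (0.953) held 1 as well. Cry1 was the only member whose ratio changed side with the measure, at 0.899 by TPM. By the TPM of Cry1-201 alone it was 1.03, and the fragment Cry1-202 held 0.41 TPM in replicate 2 only.

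In all, 6 of the 9 members tested had an interval without 1, namely Arntl on the side of replicate 1 and Per1, Per3, Cry2, Nr1d1 and Nr1d2 on the side of replicate 2. Over all genes tested that share was 18.1%, and it was 9.11% for replicate 1 and 9.01% for replicate 2. Both the count and these shares hold for TMM scaling only. The upper bounds of Per1 (0.994) and Cry2 (0.970) lie close to 1, and with ERCC totals their ratios rose to 0.912 and 0.867. The median log2 ratio over the tested members was -0.18, beside -0.01 over all tested genes, and the median size of the log2 ratio was 0.20, beside 0.11. A ratio as far from 1 as that of Arntl was found in 2.5% of tested genes, and one as far as that of Per3 in 2.83%. For Nr1d2 the same share was 9.59%, and for the other tested members between 18.5% (Cry2) and 75.3% (Cry1). These shares and medians are a description, since the members were chosen with their ratios known. The tested genes were not matched to the members for counts. The acute response genes and the markers of blood, fat and lung described here were also higher in replicate 1, and their part in the clock gene differences was not tested.

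**Figure D3:**
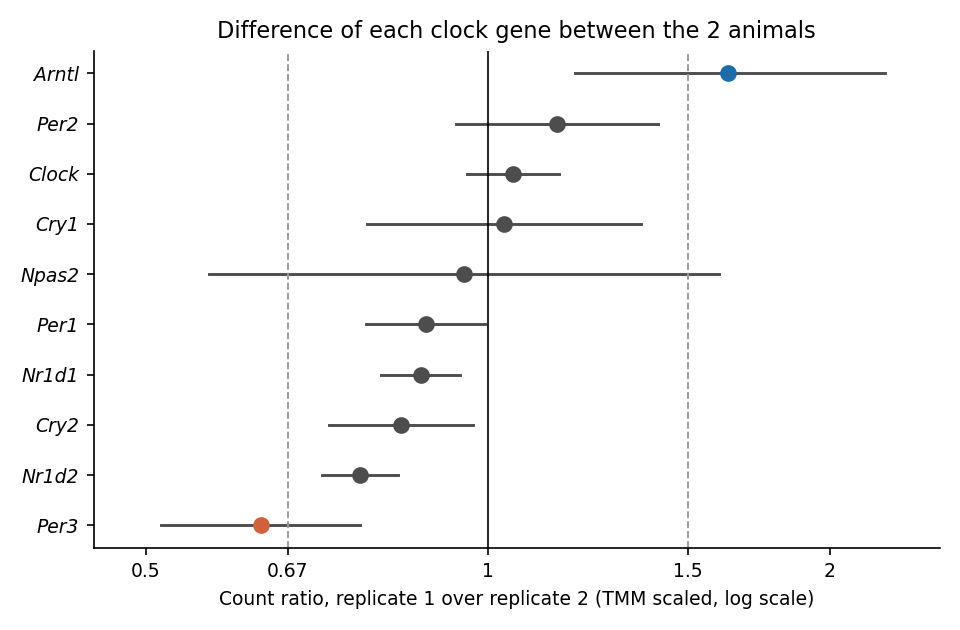
Count ratio of replicate 1 over replicate 2 for each core clock gene on a log axis, with TMM scaling and exact counting intervals that leave 0.1% outside, where the dashed lines mark 1.5-fold in either direction. Arntl at 1.63 and Per3 at 0.632 lie beyond the dashed lines at opposite ends, and the intervals of Per2, Clock, Cry1 and Npas2 cross 1.

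Ratios inside a library do not depend on how the libraries are scaled, and they set the 2 sides of the loop against each other. Nr1d1, the repressor of Arntl, stood 11.7-fold above Arntl in replicate 1 and 21.4-fold in replicate 2. Nr1d2 stood 7.71-fold and 15.8-fold above it, and Per1 4.10-fold and 8.30-fold. Both animals therefore had more Nr1d1, Nr1d2 and Per1 than Arntl per transcript length, and the distance was wider in replicate 2.

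Per2 and Per3 were close to Arntl. Per2 was 0.926 times Arntl in replicate 1 and 1.28 times Arntl in replicate 2. Per3 was 0.849 times Arntl in replicate 1 and 2.18 times in replicate 2, so by TPM the order of both genes with Arntl differed between the animals. By expected counts, which grow with transcript length, both lay above Arntl in each animal, Per2 at 1.89 times and 2.67 times and Per3 at 1.48 times and 3.81 times. On the log2 scale the ratios to Arntl were 3.99 ± 0.61 for Nr1d1, 3.46 ± 0.73 for Nr1d2, 2.55 ± 0.72 for Per1, 0.44 ± 0.96 for Per3 and 0.12 ± 0.33 for Per2 (SD, n = 2). All 5 share Arntl as their denominator, so its difference between the animals enters each of them.

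With Clock, whose transcript varies little over the day in most mouse tissues, as the denominator, the spread was smaller. This set was added after the values were seen. Nr1d1 was 3.62 times and 4.37 times Clock in replicates 1 and 2, Nr1d2 2.38 times and 3.22 times, and Per1 1.27 times and 1.69 times. Per3 was 0.262 times and 0.445 times Clock, and Per2 0.286 times and 0.261 times. Over Clock, 4 of these 5 ratios were higher in replicate 2, with Per2 the exception. In the second quantification Per1 was 0.905 times Clock in replicate 1 and 1.30 times in replicate 2.

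Clock itself was 3.24-fold above Arntl in replicate 1 and 4.90-fold in replicate 2. Ratios to Npas2 rest on its few counts. Nr1d1 was 54.5-fold and 58.7-fold above it in the gene table, and 47.5-fold and 41.4-fold in the second quantification. With 1 TPM added they were 22.5-fold and 25.3-fold, and Clock over Npas2 was 6.64-fold and 6.24-fold. Nr1d1 was 1.52 times Nr1d2 in replicate 1 and 1.36 times in replicate 2. Per2 was 0.98 times Cry1 in replicate 1 and 0.783 times in replicate 2. The pairs Nr1d1 over Nr1d2, Cry2 over Cry1 and Clock over Npas2 thus kept their order in both animals, while Per2 lay above Per3 in replicate 1 and below it in replicate 2.

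**Figure D4:**
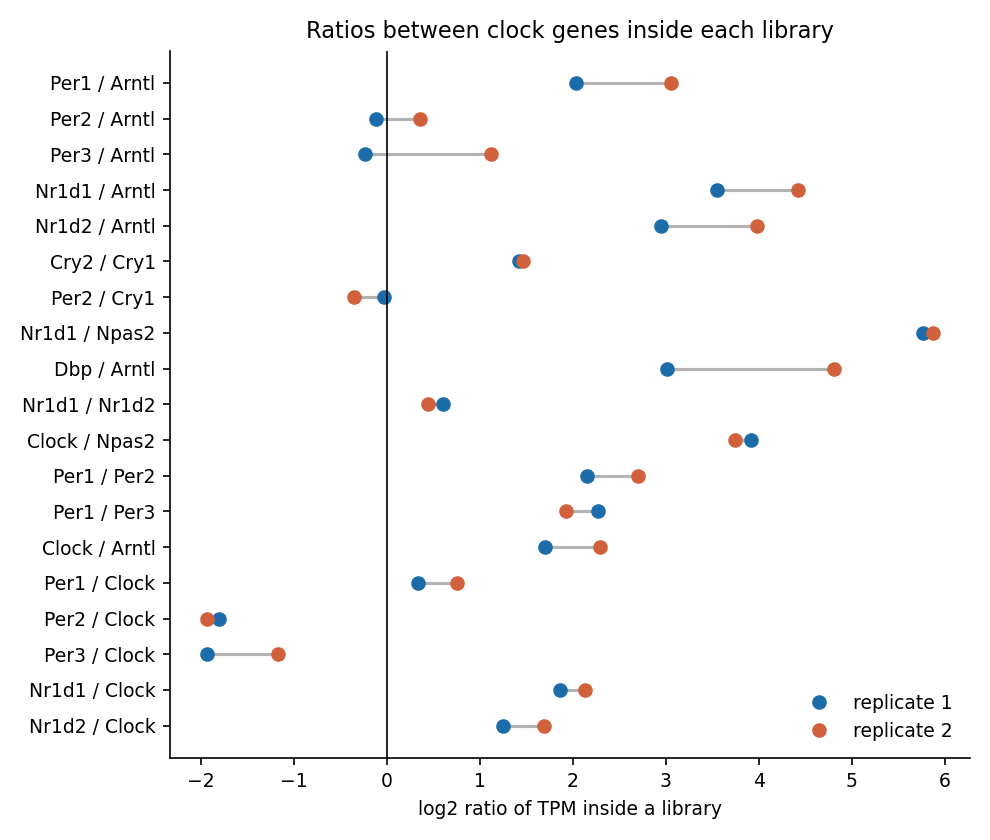
Log2 ratio of TPM for 19 gene pairs inside replicate 1 and inside replicate 2, joined by a grey line. The ratios to Arntl lie farther right in replicate 2, Dbp over Arntl farthest apart at 3.02 and 4.81, while Cry2 over Cry1 lies at 1.42 and 1.46.

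A single contrast summed up these ratios as the mean log2 TPM of Per1, Per2, Per3, Nr1d1 and Nr1d2 minus that of Arntl, Clock, Npas2 and Cry1. Of the Arntl side, only Arntl and Npas2 are described above as peaking opposite to the Per and Nr1d transcripts. The Clock transcript varies little over the day, and Cry1 is switched on by the activators. The contrast is therefore not a measure of phase alone. It was 1.79 in replicate 1 and 2.20 in replicate 2, with a mean of 1.99 ± 0.29 (SD, n = 2), or 3.45-fold and 4.59-fold. The first side stood at 3.28 and 3.59 and the other at 1.49 and 1.39 (log2 TPM). The contrast depended on which genes stood on the Arntl side: it was 3.03 without Clock and Cry1 and 1.34 without Npas2. It was higher in replicate 2 under each of the 7 alternative settings of unit, quantification and genes. These settings reuse the same reads and are not separate checks. FPKM, a unit proportional to TPM inside a library, has to give nearly the same contrast. Without a collection time in the labels, a time of day was not assigned to either heart.

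Of 13 further regulators of the loop, 11 reached 1 TPM in both libraries. This list and those that follow were chosen with earlier results of these data known, so counts called in them are a description. Dbp, a D-box activator driven directly by CLOCK and BMAL1, was at 25.1 TPM in replicate 1 and 55.9 TPM in replicate 2, with a count ratio of 0.458. Nfil3, the repressor that binds the same D-box and is itself repressed by REV-ERB, was at 8.24 and 3.8 TPM, with a ratio of 2.22. Of the 11 tested, Dbp in replicate 2 and Nfil3 in replicate 1 were called at 2-fold, against 0.219% and 0.858% of all tested genes called on those sides. Bhlhe41, an E-box repressor named because it alone joined them at 1.5-fold in the gene table, was at 10.3 and 18.7 TPM, a ratio of 0.566. The second quantification also called Ciart, another repressor of the loop, at 1.5-fold, with a ratio of 0.648 there and 0.688 in the gene table.

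Tef, a relative of DBP, was at 43.6 TPM in replicate 1 and 53.6 TPM in replicate 2, and Bhlhe40 at 17.6 and 20.02 TPM, and neither was called. Over the list 3 genes had the higher TPM in replicate 1 and 10 in replicate 2. The median log2 ratio of the 11 tested was -0.19, beside -0.18 for the core members. Dbp over Arntl was 8.08 in replicate 1 and 28.0 in replicate 2, the widest difference between the animals among the 19 pairs.

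Further lists cover clock protein turnover and the transcription complexes. Of 12 kinase and turnover genes, 11 reached 1 TPM in both libraries, and 0 of the 11 tested were called at 2-fold or 1.5-fold, against 1.08% and 3.53% of all tested genes. The highest were Csnk1a1, a casein kinase, at 64.6 and 68.2 TPM in replicates 1 and 2, Usp2, a deubiquitinase whose transcript cycles in mouse tissues, at 55.6 and 73.1 TPM, and Csnk2a1, another casein kinase, at 40.1 and 38.0 TPM. All 11 corepressor and coactivator genes reached 1 TPM, and 0 were called by either rule, against the same shares of all genes. With lists of this size, counts of 0 do not set them apart from all genes. Ncor1, through which REV-ERB recruits a histone deacetylase, was at 50.3 and 45.5 TPM in replicates 1 and 2, and Tbl1xr1, a subunit of the same complex, at 24.2 and 24.6 TPM. The median log2 ratios of these lists were -0.07 and 0.02.

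Rhythmic output genes of the mouse heart had a median of 38.0 ± 0.576 TPM over 8 genes (SD of the 2 libraries' medians), beside medians of 5.50 TPM in replicate 1 and 6.68 TPM in replicate 2 over the 10 core genes. Pdk4, an inhibitor of glucose oxidation, was at 178.0 TPM in replicate 1 and 129.0 TPM in replicate 2, a count ratio of 1.42. Dgat2, which makes triglyceride, was at 118.8 and 147.4 TPM, and Kcnip2, a potassium channel subunit, at 63.5 and 63.8 TPM. Ucp3, a mitochondrial carrier linked to fatty acid use, was the 1 gene of 8 called at 2-fold, at 7.2 TPM in replicate 1 and 20.6 TPM in replicate 2, a ratio of 0.349, against 0.219% of all tested genes called on the side of replicate 2.

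A list of 12 acute response genes, which answer to glucocorticoids, cyclic AMP or heat and to which Per1 also belongs by its regulation, was higher in replicate 1 throughout. All 12 had the higher TPM there, and 9 of the 12 tested were called at 1.5-fold and 3 at 2-fold. Of all tested genes 2.52% and 0.858% were called on that side, and 3.53% and 1.08% on either side. The list was chosen with earlier results of these data known, so these counts are a description and not a test. Fos was at 9.2 TPM in replicate 1 and 1.51 TPM in replicate 2, a ratio of 7.97. Dusp1, a phosphatase that shuts off MAP kinases, was at 23.5 and 11.8 TPM, and the heat shock gene Hspa1b at 1.93 and 0.6 TPM, with ratios of 2.06 and 3.25. Hspa1b shares most of its sequence with its paralog Hspa1a, so its counts are uncertain.

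The most abundant of that list were Zbtb16, a glucocorticoid-induced zinc finger gene, at 49.2 TPM in replicate 1 and 26.0 TPM in replicate 2, Tsc22d3 at 44.4 and 36.6 TPM and the chaperone Hsph1 at 25.8 and 17.1 TPM. The median log2 ratio of the list was 0.81. Per1 and Per2 had ratios of 0.882 (0.782 to 0.994) and 1.15 (0.937 to 1.41), and the interval of Per2 held 1.

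**Figure D5:**
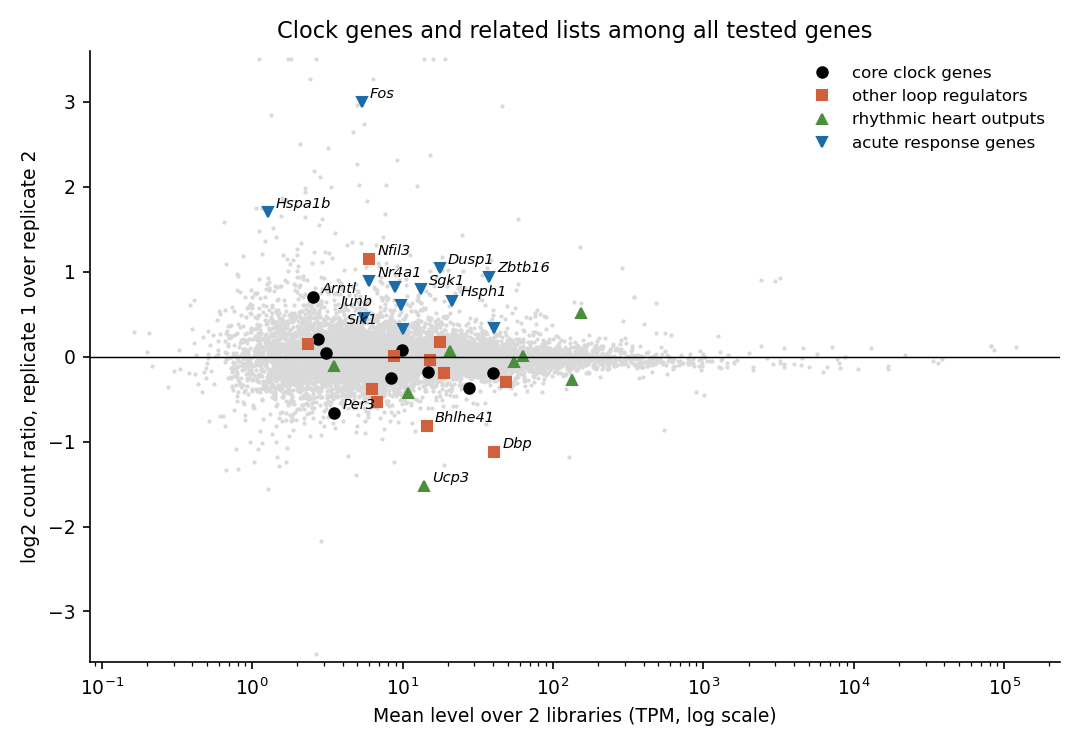
Log2 count ratio of replicate 1 over replicate 2 against mean TPM on a log axis for all tested genes (grey), with the core clock genes and 3 related lists marked and points beyond the vertical axis drawn at its edge. Dbp and Ucp3 lie lowest among the marked genes and Fos highest, all 12 acute response genes lie above 0, and the core clock genes lie between Per3 and Arntl.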

How the data were processed

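Gene and transcript tables of 2 heart libraries were used, on mm10 and GENCODE M21 per the deposited file listings. The gene tables hold expected counts, TPM, FPKM and intervals of TPM whose level is not stated, as deposited by the authors with RSEM's columns. Deposited tables of transcripts add each one's percent share of its gene. A second transcript table per library holds estimated counts and TPM in the layout of kallisto, per the file headers. The aligner, tool versions and use of strand are items not given in the sources used here. Short transcripts gain TPM from a small effective length, which differs between the 2 quantifications.

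Expected counts were rounded and scaled with TMM in edgeR 4.0.16 (R 4.3.3) over all mouse genes, with DESeq2 1.42.0 size factors, total counts and ERCC totals as alternatives. No model was fitted and no p-value computed, since there is 1 group with 1 library per animal. Intervals are exact Clopper-Pearson bounds at 99.9% and cover counting error only, and the tables carry no molecular identifiers. The counts of the 2 libraries differed beyond sampling noise (chi-square 15.4 per degree of freedom over 17075 genes). Differences between these 2 libraries may be technical. Python 3.11.15 with pandas 2.3.3, numpy 2.4.6, scipy 1.17.1 and matplotlib 3.10.9 did the rest, and the ratio and call steps were tested on simulated data.

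The members, gene lists and ratios were chosen with earlier results of these data known. Named genes are all 10 members, the 3 highest by mean TPM in each list and every list gene called at 2-fold. 1 item that this rule names is not reported here. The ratios over Clock, the contrasts without Arntl or Npas2 and the 300-base promoter window were added after the data were seen. Protein sequences were not used here.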

Additional observations from a re-analysis of the deposited data

How the results depend on the processing

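The calls between animals, 0 members at 2-fold and 2 at 1.5-fold, were the same with DESeq2 size factors, total counts, ERCC totals, no filter on low counts and the second quantification. The count of members with an interval without 1 was not repeated under these settings. The ratio of Arntl stayed between 1.56 and 1.68 and that of Per3 between 0.606 and 0.653, while Cry1 ran between 0.899 and 1.07. The mean contrast of 1.99 (log2) became 1.62 with 1 TPM added, 3.03 without Clock and Cry1 and 1.34 without Npas2, and was 1.74 in the second quantification and 2.02 with expected counts. Leaving out a replicate gave 1.79 to 2.20. Of 19 mean pair ratios, 14 moved by more than 1 SD with expected counts, 7 in the second quantification and 5 with 1 TPM added. With expected counts 3 changed side: Per2 over Cry1 (-0.19 to 0.86), Nr1d1 over Nr1d2 (0.52 to -0.09) and Per1 over Clock (0.55 to -0.74). In the second quantification 6 of 10 levels and 7 of 10 leading transcript shares moved by more than 1 SD of the 2 libraries. Depth limits Npas2, with 171 counts in all, and transcript shares of Arntl. Leaving out a library leaves no ratio between animals, and the planned comparison of protein sequences was not run. No paired analysis was possible because there is 1 group.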
